A study of Mus musculus with 12 samples.

Results

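Transport of sodium and chloride across the intestinal epithelium was followed through 10 of the 55487 genes in the deposited tables. They were chosen by name for their known roles in this transport, and are Scnn1a, Scnn1b, Scnn1g, Slc9a2, Slc9a3, Slc26a3, Slc26a6, Slc12a2, Cftr and Atp12a. Genes were matched by symbol through their Ensembl IDs, and all 10 were found once each. Absorption of salt in the gut runs through sodium/proton exchangers (the NHE family) coupled to chloride/bicarbonate exchangers in the apical membrane, and in the distal colon also through the epithelial sodium channel ENaC that aldosterone controls through the mineralocorticoid receptor. Secretion of chloride needs a basolateral cotransporter that loads the cell with chloride and an apical channel, CFTR, that lets it out when cyclic nucleotides rise. The sodium pump in the basolateral membrane and potassium channels keep both directions going, and in the colon an apical proton/potassium pump takes up potassium.

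RNA was sequenced from freshly isolated crypts of the mouse small intestine (SIcrypt) and large intestine (LIcrypt), and from monolayers that grew from such crypts for 24 h (SI24h and LI24h), with 3 libraries in each of the 4 groups. The mice were of strain C57BL/6 (C57BL/6NHsd in the methods), the culture methods give an age of 6 to 10 weeks and either sex, and the labels give control medium as the only treatment. Each crypt library came from 1 mouse, while each monolayer library pooled wells, so that the spread among monolayer libraries may hold little of the spread between mice. For the cultures the small intestine was represented by jejunum, whose epithelium was released with EDTA and strained to separate crypts from villus pieces, and the large intestine of the same mice was digested with Collagenase D and Dispase before EDTA was added. Crypts were plated on Matrigel in medium with CHIR-99021, EGF, LDN-193189, R-spondin-1, Wnt3a and Y-27632, and from 4 h after seeding they were kept in medium with Wnt3a, EGF, Noggin and R-spondin-1. The digestion differed between the regions and the culture included an attachment step that fresh crypts did not pass, so region and isolation, and culture and attachment, cannot be told apart here.

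Libraries held 59016196 to 76216530 counts. Normalized counts are the deposited counts of a gene divided by 1 size factor per library, and are used to compare 1 gene between libraries. For levels of different genes, counts were divided by library size and gene length (RPKM, counts per kilobase of exon and per 1e6 counts). Differences between groups were tested over all 19581 genes with enough counts by edgeR's quasi-likelihood test, with Benjamini-Hochberg adjustment over all of them. Each adjusted p below is from edgeR unless DESeq2 is named. A gene is called higher or lower, and is said to have risen or fallen, with an adjusted p under 0.05 and a log2 fold change (log2FC) of at least 1 in size. A difference between the fold changes of the regions on culture (the interaction) was tested in the same way. A count of 0 in a library allows up to 3 counts, or 0.0394 to 0.0508 counts per 1e6 counts (CPM), for counting error only. Between 73.4% and 77.4% of counts from 1 to 20 were even numbers, so a value of 2 may stand for 1 fragment with its mates counted singly, which the sources used here do not settle.

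The libraries matched their labelled regions. Summed over Gata4, Onecut2, Creb3l3 and Bcl11b, transcription factors of the small intestine, SIcrypt libraries held 559, 475 and 423 CPM and SI24h libraries 269, 273 and 276 CPM, against 17.8, 14.3 and 12.8 CPM in LIcrypt and 10.8, 11.7 and 13.6 CPM in LI24h. Hoxb13, a factor of the large intestine, had normalized counts of 22706, 19332 and 31592 in LIcrypt and 3108, 3199 and 3019.9 in LI24h, against 51.8, 48.0 and 39.1 in SIcrypt and 52.8, 71.2 and 10.9 in SI24h. None of these factors was at 0 in a group. Bcl11b made up most of the sum in LIcrypt, with normalized counts of 723 ± 24.0 there and 1703 ± 170.3 in SIcrypt, so it separated the regions less than the other factors. The 8 epithelial markers, led by Krt8, summed to 13697 ± 623 CPM in SIcrypt, 27505 ± 437 in SI24h, 22168 ± 172 in LIcrypt and 35802 ± 569 in LI24h (mean ± SD, n = 3, as for every mean below). Some crypt libraries stood apart. The 8 Paneth cell markers, led by Lyz1, summed to 5421, 10301 and 26702 CPM in SIcrypt replicates 1, 2 and 3, so replicate 3 held the most. Its absorptive cell markers (8 genes led by Anpep) were the lowest of the group at 12651 CPM against 20229 and 18119 CPM. In LIcrypt the same absorptive markers of the small intestine came to 370.3, 354 and 187 CPM. Fabp2 made up most of this sum in LIcrypt, with normalized counts of 14495, 19581 and 11320, while Anpep was at 2676, 663 and 376.

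Other cells of the epithelium and its surroundings differed between the groups as well. The markers of large intestinal surface cells (8 genes, led by Krt20) summed to 5133 ± 1652 CPM in LIcrypt and 856 ± 15.1 in LI24h, and to 2126 ± 246 CPM in SIcrypt and 1093 ± 14.7 in SI24h. Absorptive cell markers of the small intestine went from 16999.6 ± 3911 CPM in SIcrypt to 4326 ± 99.1 in SI24h, with 5 of 8 genes lower and none higher. Goblet cell markers (8 genes, led by Clca1) summed to 8298 ± 2242 CPM in SIcrypt, 5167 ± 74.5 in SI24h, 19524 ± 2268 in LIcrypt and 1708 ± 97.8 in LI24h, and all 8 were lower in LI24h than in LIcrypt. Stem cell markers (8 genes, led by Olfm4) summed in the same order of groups to 1483 ± 202, 185 ± 2.99, 129 ± 5.63 and 37.3 ± 3.76 CPM. Of these markers 2 were lower and none higher in SI24h than in SIcrypt, and 5 were lower and none higher in LI24h than in LIcrypt. Most of the difference between SIcrypt and SI24h came from Olfm4 alone, at 1252 CPM in SIcrypt and 18.4 CPM in SI24h. The 8 markers of proliferating cells, led by Pcna, summed to 874 ± 29.7, 1182 ± 5.84, 729.7 ± 48.4 and 1021 ± 29.0 CPM, and none of them was called in any comparison. Enteroendocrine markers (8 genes, led by Chgb) summed to 395 ± 107, 713 ± 21.3, 266 ± 22.1 and 1005 ± 69.1 CPM. Immune markers (8 genes, led by Gzma) came to 460.5 ± 75.8, 13.8 ± 0.766, 40.7 ± 5.40 and 2.91 ± 1.01 CPM, and mesenchymal and endothelial markers (8 genes, led by Col1a1) to 14.2 ± 9.20, 15.4 ± 5.17, 41.6 ± 7.26 and 42.4 ± 11.0 CPM. Paneth cell markers came to 7762 ± 306 CPM in SI24h, 666 ± 284 in LIcrypt and 81.7 ± 12.7 in LI24h. No gene of these lists was at 0 over all 3 libraries of a group. Mitochondrial transcripts took 4.56% to 9.16% of the counts of SIcrypt libraries, 2.25% to 2.59% in LIcrypt, 0.472% to 0.559% in SI24h and 0.704% to 0.750% in LI24h. The part of these differences in the results below was not tested, and in bulk RNA fewer cells of a type cannot be told apart from less RNA per cell.

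In fresh crypts the regions carried different leading transporters. Per length, SIcrypt held most Slc26a6 at 90.0 ± 13.1 RPKM, followed by Slc9a3 at 57.1 ± 12.3, Slc9a2 at 28.9 ± 2.64, Slc12a2 at 25.5 ± 2.43, Slc26a3 at 22.1 ± 2.87 and Cftr at 17.7 ± 0.876 RPKM. Scnn1a stood at 4.71 ± 0.63 RPKM there, Atp12a at 0.319 ± 0.16 RPKM, and the other ENaC subunits below 0.01 RPKM. Between neighbours in this order the libraries overlapped for Slc9a2 and Slc12a2, for Slc12a2 and Slc26a3, and for Scnn1g and Scnn1b. LIcrypt was led by Slc26a3 at 92.7 ± 11.4 RPKM, then Atp12a at 53.6 ± 7.41, Slc9a2 at 48.8 ± 1.41, Slc9a3 at 44.0 ± 6.10, Scnn1a at 30.6 ± 0.715, Slc12a2 at 27.3 ± 1.67 and Cftr at 14.0 ± 0.806 RPKM. Below these came Scnn1b at 2.45 ± 0.668, Slc26a6 at 0.724 ± 0.379 and Scnn1g at 0.223 ± 0.117 RPKM, and the libraries of Atp12a, Slc9a2 and Slc9a3 overlapped from each one to the next.

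After 24 h of culture the order differed in both regions. SI24h was led by Slc9a2 at 34.9 ± 0.536 RPKM, before Slc26a6 at 24.0 ± 0.194, Slc12a2 at 18.0 ± 0.919, Cftr at 10.7 ± 0.826, Slc26a3 at 9.53 ± 0.707 and Slc9a3 at 6.89 ± 0.0928 RPKM, with overlapping libraries for Cftr and Slc26a3. LI24h was led by Atp12a at 87.7 ± 1.73 and Slc9a2 at 81.3 ± 1.80 RPKM, before Slc12a2 at 28.7 ± 1.01, Scnn1a at 27.1 ± 1.29 and Slc26a3 at 26.4 ± 2.09 RPKM, whose libraries overlapped from each to the next. Cftr at 2.24 ± 0.106, Slc26a6 at 1.13 ± 0.103, Slc9a3 at 0.439 ± 0.0878, Scnn1b at 0.107 ± 0.0411 and Scnn1g at 0.0162 ± 0.028 RPKM made up the lower end. Slc9a3 thus stood near the top in SIcrypt and near the bottom in LI24h. These orders depend on the length given to a gene. With the longest annotated transcript in place of the union of exons, Slc9a2 led LI24h at 113 RPKM before Atp12a at 89.1 RPKM, and Slc26a3 came to 170.5 RPKM in LIcrypt.

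**Figure D1:**
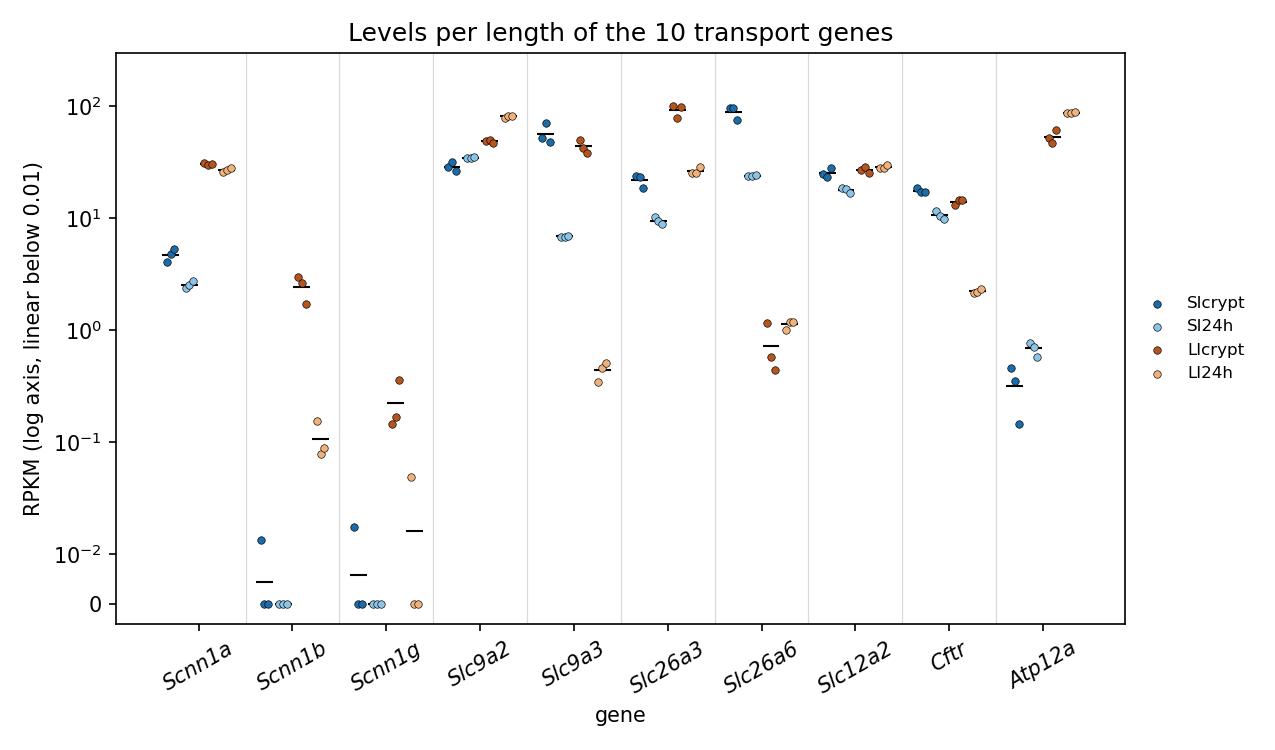
Levels per length (RPKM, log axis that is linear below 0.01) of the 10 transport genes in the 12 libraries, with points for single libraries, colours for the 4 groups and black lines for group means. Slc26a6 and Atp12a change places between small and large intestine, and Slc9a3 lies lowest in LI24h at 0.439 RPKM.

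All 10 genes passed the filter on low counts and were tested in every comparison. In SI24h against SIcrypt, 4 of the 10 were called, where 26.1% of all tested genes were: 3 were lower (16.4% of all genes) and 1 was higher (9.71%). In LI24h against LIcrypt, 5 were called beside 38.0% of all genes, all of them lower (23.5%) and none higher (14.5%). Of these, Scnn1b and Scnn1g had most of their counts in LIcrypt and could hardly be called other than lower. With at least 10 counts required in every library both drop out and 3 are called, and with DESeq2 Scnn1g is not called. Fresh crypts of the regions differed in 6 of the 10 beside 22.7% of all genes, with 1 higher (11.6%) and 5 lower (11.1%) in SIcrypt. Here too Scnn1b and Scnn1g, with 2 and 3 counts over all of SIcrypt, could hardly be called other than lower. With at least 10 counts in every library 4 are called between crypts, and with DESeq2 5, Scnn1g not being called. In monolayers 8 of the 10 differed between the regions beside 21.2%, with 3 higher (12.4%) and 5 lower (8.88%) in SI24h. Among the lower ones Scnn1b, at 0 in all SI24h libraries, could again hardly be called otherwise. With at least 10 counts in every library 7 are called between monolayers. The interaction called 3 of 10 beside 20.0% of all genes, 2 of them higher (11.4%) and 1 lower (8.51%), where higher means that the fold change on culture was larger in the small than in the large intestine. The median log2 fold change over all tested genes was -0.05 in both culture comparisons, 0.06 between crypts, 0.02 between monolayers and -0.00021 for the interaction. Slc12a2 was the only one of the 10 that was called in none of the 5 comparisons.

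**Figure D2:**
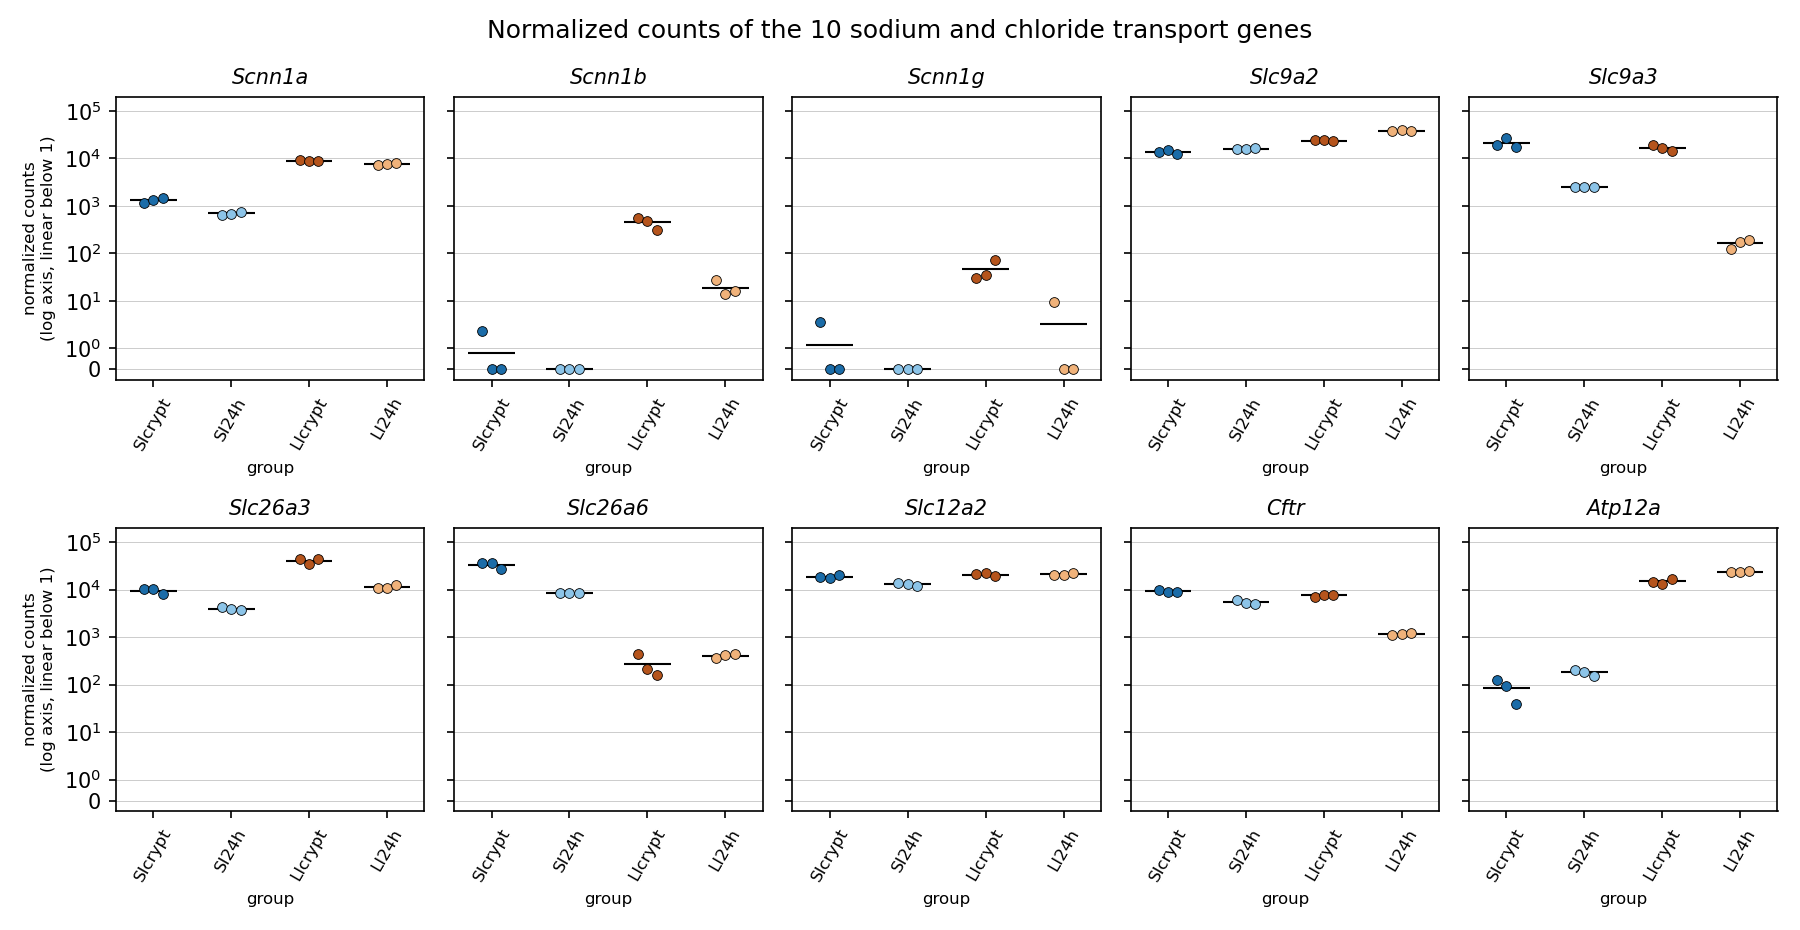
Normalized counts (log axis, linear below 1) of each of the 10 genes in the 12 libraries, with points for the 3 replicates of a group in order and black lines for group means. Scnn1b and Scnn1g are at 0 in all SI24h libraries, and Slc12a2 keeps within 12139.5 to 21862 normalized counts over all libraries.

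ENaC is built from an alpha, a beta and a gamma subunit, of which alpha is needed for a channel to form and beta and gamma raise the current many times. Normalized counts of Scnn1a, the alpha subunit, were 1124, 1332 and 1462 in SIcrypt, 652, 682 and 739.5 in SI24h, 9072, 8590.3 and 8576 in LIcrypt and 7069, 7568 and 7862 in LI24h. Every library of the large intestine lay above every library of the small intestine, by 6.69 times between the means of the crypts and 10.9 times between those of the monolayers. Scnn1a was lower in SIcrypt than in LIcrypt (log2FC -2.70, SE 0.0829, adjusted p = 3.4e-13) and lower in SI24h than in LI24h (log2FC -3.41, SE 0.0862, adjusted p = 5.5e-14). On culture its values moved by less than the minimum fold change, with SI24h below SIcrypt in all libraries (log2FC -0.89, adjusted p = 1.2e-07) and LI24h below LIcrypt in all libraries (log2FC -0.18, adjusted p = 0.053).

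Scnn1b, the beta subunit, had counts of 590, 522 and 346 in LIcrypt and 28, 12 and 16 in LI24h, of 2, 0 and 0 in SIcrypt, and 0 in all 3 libraries of SI24h. It was thus well counted in fresh crypts of the large intestine alone, with all LI24h libraries below all LIcrypt libraries and above all SI24h libraries. Per counts of the whole library, LIcrypt held 22.5 times as much as LI24h (95% counting interval 17.2 to 29.9), and Scnn1b fell on culture (log2FC -4.50, SE 0.364, adjusted p = 5.3e-08). Against the 2 counts of SIcrypt, LIcrypt held 613 times as much, with a counting interval of 169 to 5064 (adjusted p = 7.3e-09). With 1 library left out this ratio lay between 393 and 707, and was at least 286 without SIcrypt replicate 1, which held all counts of its group. LI24h held at least 20.4-fold more than SI24h, taking the 0 of SI24h as 3 counts over the group (adjusted p = 3.3e-05), and at least 13.4-fold to 22.9-fold with 1 library left out. Intervals and floors cover counting error of independent counts only. If both mates were counted, so that counts are divided by 2, the floor over SI24h is 10.2-fold. The intervals then widen to 15.4 to 34.1 against LI24h and 109.6 to 24235 against SIcrypt.

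Scnn1g, the gamma subunit and the neighbour of Scnn1b 96.6 kb away on the same chromosome, was rarer still, with counts of 32, 38 and 82 in LIcrypt, 10, 0 and 0 in LI24h, 3, 0 and 0 in SIcrypt and 0 in all SI24h libraries. LIcrypt lay above the other groups in every library, and in LI24h all counts came from replicate 1. The ratio of LIcrypt to SIcrypt was 42.6 (counting interval 14.3 to 209, adjusted p = 0.003) and that of LIcrypt to LI24h 13.1 (counting interval 6.95 to 27.9, adjusted p = 0.0069). With 1 library left out, the ratio to SIcrypt lay between 27.3 and 50.05, and was at least 29.8 without SIcrypt replicate 1, which held all counts of its group. The ratio to LI24h lay between 8.56 and 15.4, and was at least 28.3 without LI24h replicate 1. With counts divided by 2 and rounded down, the ratio to SIcrypt is 63.9 with an interval of 11.1 to 2556, and the interval against LI24h is 5.39 to 41.6. Both calls were lost with DESeq2, at an adjusted p of 0.087 for the crypts and 0.19 for culture, where the alternatives ranged from 0.00035 to 0.087 and from 0.00061 to 0.19. Between monolayers LI24h held at least 3.65-fold more than SI24h (1.82-fold with counts divided by 2), which was not called (adjusted p = 0.09). Neither group held a count without LI24h replicate 1, and with another library left out the floor lay between 2.39-fold and 5.59-fold. Without LI24h replicate 3 Scnn1g was called between monolayers at an adjusted p of 0.048, at the low end of a range of 0.048 to 0.21 over the alternatives. Relative to Scnn1a and per length, Scnn1b came to 9.59%, 8.73% and 5.65% in LIcrypt and 0.598%, 0.286% and 0.316% in LI24h, and Scnn1g to 0.458%, 0.559% and 1.18% in LIcrypt. Transcripts of the 3 subunits were therefore far from equal in number in every group, alpha being the most abundant.

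The genes around ENaC changed with culture mostly downward in the large intestine. Of 12 listed genes that regulate the channel, 2 rose and 6 fell in LI24h against LIcrypt (median log2 fold change -0.63), and 1 rose and 3 fell in SI24h against SIcrypt (median -0.04). Of all tested genes 14.5% rose and 23.5% fell in LI24h, and 9.71% rose and 16.4% fell in SI24h. SIcrypt was lower than LIcrypt in 4 and higher in none (median -0.67), SI24h was lower than LI24h in 4 and higher in 1 (median -0.66), and the interaction called 4, all higher. Hsd11b2 encodes the enzyme that inactivates glucocorticoids and so leaves the mineralocorticoid receptor to aldosterone, and its normalized counts were 20021, 17755 and 22434 in LIcrypt, 181, 129 and 136 in LI24h, 755, 733 and 828 in SIcrypt and 59.5, 90.8 and 52.9 in SI24h. The 4 groups did not overlap. Hsd11b2 fell in the large (log2FC -7.02, adjusted p = 3.0e-11) and in the small intestine (log2FC -3.47, adjusted p = 2.9e-08), by more in the large (interaction log2FC 3.55, adjusted p = 1.4e-06).

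Nr3c2, the mineralocorticoid receptor itself, stood at 7150.4 ± 196 normalized counts in LIcrypt, 2818 ± 92.3 in LI24h, 2832 ± 151 in SIcrypt and 1361 ± 27.8 in SI24h. It fell in both regions (log2FC -1.30, adjusted p = 2.0e-12 in the large and log2FC -1.02, adjusted p = 1.1e-10 in the small intestine). Sgk1, a kinase that keeps ENaC at the membrane, fell from 2965 ± 577 to 804 ± 142 in the large intestine (log2FC -1.84, adjusted p = 0.0013) and from 929 ± 526 to 238 ± 18.3 in the small (log2FC -1.92, adjusted p = 0.0018). SIcrypt replicate 1 held 1530.2 against 552 and 703 in the others. Nedd4l, the ubiquitin ligase that removes ENaC from the membrane, was called in no comparison and lay between 4673 in SIcrypt and 7512 in LI24h (group means). Tsc22d3, which glucocorticoids and aldosterone induce, fell in LI24h from 2476 ± 197 to 345 ± 5.84 (log2FC -2.80, adjusted p = 1.2e-12). Its values of 1821 ± 293 in SIcrypt and 1079.7 ± 44.8 in SI24h did not reach the minimum fold change (log2FC -0.72, adjusted p = 9.5e-06; interaction log2FC 2.08, adjusted p = 1.1e-08). Fxyd4, a regulator of the sodium pump in aldosterone-sensitive epithelia, was found almost only in the large intestine, at 541, 258 and 709.7 normalized counts in LIcrypt and 29.8, 29.8 and 19.8 in LI24h (log2FC -4.20, adjusted p = 5.7e-07; interaction log2FC 4.34, adjusted p = 0.0067). It had no more than 5.34 in any small intestinal library. With most of its counts in LIcrypt, Fxyd4 too could hardly be called other than lower in LI24h and higher in the interaction. Tmprss4, a membrane protease that can cleave ENaC, fell in LI24h from 19844 ± 366 to 4579 ± 77.8 (log2FC -2.07, adjusted p = 7.9e-15). It was at 10575 ± 502 in SIcrypt and 6899.7 ± 259 in SI24h (log2FC -0.58, adjusted p = 3.3e-08; interaction log2FC 1.49, adjusted p = 1.4e-10).

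Among the exchangers that take up sodium for protons, NHE3 (Slc9a3) carries most of the absorption in the brush border, and NHE2 (Slc9a2) is a second apical exchanger. Normalized counts of Slc9a3 were 19280.3, 26447 and 17630.00 in SIcrypt and 19432, 16292 and 14504 in LIcrypt, and 2492, 2457 and 2519 in SI24h and 125, 171 and 189.7 in LI24h. The crypt groups overlapped, while each monolayer group lay far below its crypts and LI24h far below SI24h. Slc9a3 fell to a mean 8.48 times lower in the small intestine (log2FC -3.05, SE 0.176, adjusted p = 1.5e-07) and 103 times lower in the large (log2FC -6.65, SE 0.218, adjusted p = 9.5e-10). The fold changes differed between the regions (interaction log2FC 3.60, SE 0.256, adjusted p = 2.0e-06). Crypts of the regions were not called apart (log2FC 0.38, adjusted p = 0.077), and monolayers were (log2FC 3.97, SE 0.202, adjusted p = 8.5e-08).

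Slc9a2 had normalized counts of 13369.9, 14959.7 and 12334 in SIcrypt, 16057, 15738 and 16206 in SI24h, 24021, 24119 and 22591 in LIcrypt and 36789.8, 38837 and 38445 in LI24h. Every monolayer library was above every crypt library of its region and every large intestinal library above every small intestinal one. Of these differences the one between monolayers was called (log2FC -1.22, SE 0.0597, adjusted p = 8.2e-11; interaction log2FC -0.46, adjusted p = 2.7e-04). The others were smaller than the minimum fold change (log2FC 0.27, adjusted p = 7.7e-04 for culture of the small intestine, log2FC 0.74, adjusted p = 1.1e-08 for culture of the large, and log2FC -0.76, adjusted p = 2.0e-08 between crypts). Per length, Slc9a3 made up 64.7%, 69.2% and 64.5% of both exchangers together in SIcrypt and 50.7%, 46.2% and 44.9% in LIcrypt. In SI24h its share was 16.5%, 16.5% and 16.5%, and in LI24h 0.43%, 0.556% and 0.622%. The balance of the 2 exchangers thus lay on the side of Slc9a2 in all monolayer libraries, and with the longest transcript as length the group means were 60.1%, 40.9%, 13.2% and 0.415% in the same order.

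Of 10 other exchangers and NHE regulators, 1 rose and 3 fell in SI24h (median log2 fold change -0.37) and 2 rose and 3 fell in LI24h (median 0.21). SIcrypt was higher than LIcrypt in 4 and lower in 1, SI24h higher than LI24h in 3 and lower in 2, and the interaction called 1 higher and 4 lower. Slc9a4 encodes NHE4, an exchanger of basolateral membranes, and had normalized counts of 104, 99.0 and 43.0 in SIcrypt and 47.0, 37.5 and 26.8 in LIcrypt against 3974, 3941 and 3954 in SI24h and 15559.8, 15274 and 14799.9 in LI24h. It was low in all 6 crypt libraries and high in all 6 monolayer libraries. Slc9a4 rose in both regions (log2FC 5.65, SE 0.215, adjusted p = 4.0e-09 in the small and log2FC 8.73, SE 0.242, adjusted p = 1.5e-10 in the large intestine; interaction log2FC -3.08, adjusted p = 3.9e-05), opposite to Slc9a3. Pdzk1, a scaffold that binds NHE3 and other apical transporters, was at 6999.6, 6555 and 4138 in SIcrypt and fell to 889, 824 and 946 in SI24h (log2FC -2.70, adjusted p = 2.5e-05, and interaction log2FC -3.55, adjusted p = 0.0019), with at most 48.2 normalized counts in a large intestinal library. At these low counts Pdzk1 was not called in LI24h (log2FC 0.85, adjusted p = 0.24), and its interaction rests mostly on the fall in the small intestine. Pdzd3, a related scaffold, fell in both regions, from 4519.8 ± 658 to 1214 ± 42.5 in the small (log2FC -1.86, adjusted p = 6.9e-08) and from 2701 ± 10.8 to 203 ± 51.6 in the large intestine (log2FC -3.69, adjusted p = 1.5e-10). Ezr, the ezrin that links such complexes to actin, rose in LI24h from 60035 ± 3026 to 246581 ± 6031 (log2FC 2.08, adjusted p = 2.1e-11). It was at 60052 ± 10019 in SIcrypt and 102821 ± 2127 in SI24h, short of the minimum fold change (log2FC 0.81, adjusted p = 1.2e-06; interaction log2FC -1.27, adjusted p = 9.6e-07).

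The anion exchangers that accompany NHE activity split by region. Slc26a3 (DRA, down-regulated in adenoma), the chloride/bicarbonate exchanger whose loss causes congenital chloride diarrhoea, had normalized counts of 10309, 10081 and 7999 in SIcrypt, 4318, 3919 and 3715 in SI24h, 44459, 34994 and 42929.8 in LIcrypt and 10653, 10818 and 12336 in LI24h. LIcrypt lay above all other groups, SI24h below all, and the lowest LI24h library was only just above the highest SIcrypt library. Slc26a3 fell on culture in the small (log2FC -1.21, SE 0.11, adjusted p = 7.8e-07) and in the large intestine (log2FC -1.81, SE 0.111, adjusted p = 9.5e-09). It was lower in the small intestine both in crypts (log2FC -2.07, adjusted p = 7.4e-09) and in monolayers (log2FC -1.47, adjusted p = 1.8e-07), and the interaction was under the minimum fold change (log2FC 0.60, adjusted p = 0.0066).

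Slc26a6 (PAT1), an exchanger of chloride for bicarbonate and oxalate, had normalized counts of 35574, 35596 and 27074 in SIcrypt, 8554, 8439.8 and 8564 in SI24h, 436, 216 and 162 in LIcrypt and 362, 429 and 433 in LI24h. All small intestinal libraries exceeded all large intestinal ones, SIcrypt exceeded SI24h, and LI24h lay between LIcrypt replicate 1 and the other LIcrypt libraries. The means differed 121 times between crypts (log2FC 6.96, SE 0.346, adjusted p = 2.1e-07) and 20.9 times between monolayers (log2FC 4.41, SE 0.31, adjusted p = 2.6e-06). Slc26a6 fell in SI24h (log2FC -1.91, SE 0.268, adjusted p = 2.4e-04), was not called in LI24h (log2FC 0.64, adjusted p = 0.097), and the interaction was called (log2FC -2.55, SE 0.407, adjusted p = 8.6e-04). Without LIcrypt replicate 1 it was called higher in LI24h than in LIcrypt, at a log2 fold change of 1.15 and an adjusted p of 5.2e-05, where the alternatives ranged from 5.2e-05 to 0.27. Within LIcrypt the same library also held the most Sis, a small intestinal marker. Normalized counts of Sis were 1723, 623 and 193 in LIcrypt and 872, 1769.9 and 1423 in LI24h against 246167, 230344 and 158049 in SIcrypt. Those of Apoa1 were 3503, 1276 and 175 in LIcrypt and 2921, 3888 and 3629 in LI24h. The part of such transcripts in the low Slc26a6 values of the large intestine was not tested. Per length, Slc26a6 made up 80.2%, 80.6% and 79.9% of Slc26a3 and Slc26a6 together in SIcrypt, 70.0%, 71.7% and 73.1% in SI24h, 1.14%, 0.721% and 0.443% in LIcrypt and 3.85%, 4.46% and 3.97% in LI24h.

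Of 8 other anion exchangers and bicarbonate transporters 6 were tested, Slc4a1 and Slc26a9 having too few counts. In SI24h 1 rose and none fell (median log2 fold change -0.11), and in LI24h 1 rose and 1 fell (median 0.0035). Between crypts and between monolayers 1 was higher and 1 lower in the small intestine, and the interaction called 2 higher and 2 lower. The gene that rose in both was Slc26a1, a sulfate and oxalate exchanger, from 13.3 ± 3.65 to 109 ± 8.58 normalized counts in the small intestine (log2FC 3.06, adjusted p = 3.5e-08). In the large intestine it went from 7.65 ± 1.22 to 239.6 ± 24.7 (log2FC 4.99, adjusted p = 9.1e-11). Slc26a2, a sulfate transporter, was highest in LIcrypt at 36686 ± 2272 and fell to 12002 ± 324 in LI24h (log2FC -1.57, adjusted p = 1.6e-11; interaction log2FC 1.53, adjusted p = 9.1e-09), beside 7399 ± 925 in SIcrypt and 7058 ± 204 in SI24h. Slc4a4, the basolateral sodium bicarbonate cotransporter, stood at 4991 ± 578 in SIcrypt, 3454 ± 40.7 in SI24h, 2738 ± 77.3 in LIcrypt and 4038 ± 190.1 in LI24h, so that only the interaction was called (log2FC -1.10, adjusted p = 1.7e-07). For Slc4a7, a related cotransporter, the values were 4135 ± 653, 5244 ± 594, 8101 ± 363 and 4006 ± 226 in the same order, and again only the interaction was called (log2FC 1.35, adjusted p = 4.8e-06).

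On the secretory side, Slc12a2 (NKCC1), the basolateral cotransporter that brings sodium, potassium and chloride into the cell, had normalized counts of 18170.00, 17319.7 and 20538 in SIcrypt, 13506, 13010.00 and 12139.5 in SI24h, 20763, 21857 and 19158 in LIcrypt and 20272, 20712 and 21862 in LI24h. SI24h libraries were the lowest, and the other 3 groups overlapped. No comparison was called: the log2 fold change was -0.50 on culture of the small intestine (95% interval -0.65 to -0.36, adjusted p = 9.2e-06) and 0.07 on that of the large (-0.07 to 0.22, adjusted p = 0.37). Between crypts it was -0.10 (-0.24 to 0.045, adjusted p = 0.24) and between monolayers -0.67 (-0.82 to -0.53, adjusted p = 4.9e-07). The interaction was under the minimum fold change as well, at -0.57 (-0.78 to -0.37, adjusted p = 1.5e-04), with the lower fold change in the small intestine. All 5 intervals exclude a doubling or halving, and the sign of the large intestinal value turned with the scaling, to -0.05 with upper quartile factors.

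Cftr, the chloride and bicarbonate channel that cyclic AMP and cyclic GMP open, had normalized counts of 9758, 9098 and 8836 in SIcrypt, 5915, 5326 and 5063 in SI24h, 7103, 7794 and 7679.9 in LIcrypt and 1109.97, 1149 and 1228 in LI24h. The 4 groups did not overlap, and LI24h stood far below the other 3. Cftr fell in LI24h to a mean 6.47 times lower (log2FC -2.65, SE 0.0695, adjusted p = 1.8e-14) and was at a mean 1.70 times lower in SI24h, under the minimum fold change (log2FC -0.73, adjusted p = 6.5e-08). The interaction was called (log2FC 1.92, SE 0.093, adjusted p = 2.3e-10), as was the difference between monolayers (log2FC 2.25, SE 0.0687, adjusted p = 4.2e-13), and crypts were not called apart (log2FC 0.33, adjusted p = 3.4e-04). Per length, Cftr made up 43.0%, 42.5% and 37.7% of Cftr and Slc12a2 together in SIcrypt, 38.1%, 36.5% and 37.0% in SI24h, 32.5%, 33.4% and 36.1% in LIcrypt and 7.15%, 7.24% and 7.32% in LI24h. The channel and the cotransporter thus parted in LI24h, where Slc12a2 kept the level of its crypts. An antisense gene, Gm15592, shares 129 bp of exon with Cftr, and the sources used here do not say if reads were assigned by strand. Gm15592 itself had at most 12 counts in a library.

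Of 6 other chloride channels listed, 1 rose and 2 fell in SI24h (median log2 fold change -0.14), and 1 rose and 3 fell in LI24h (median -1.79). SIcrypt was higher than LIcrypt in 1 and lower in 4, SI24h was higher than LI24h in 1 and lower in 1, and the interaction called 4 higher and 1 lower. Ano1, a calcium-activated chloride channel, had normalized counts of 530.5, 640.04 and 595 in SIcrypt and 14198, 13848 and 14526 in SI24h, and 11356, 9876 and 12266 in LIcrypt and 19655, 19604 and 19034 in LI24h. SIcrypt alone was low, and Ano1 rose in SI24h (log2FC 4.62, SE 0.0869, adjusted p = 1.6e-15) but was not called in LI24h (log2FC 0.84, adjusted p = 3.0e-08; interaction log2FC 3.78, adjusted p = 9.2e-13). SI24h and LI24h were not called apart (log2FC -0.42, adjusted p = 1.3e-04). Best2, a bestrophin of colonic goblet cells that conducts chloride and bicarbonate, was at 2075, 2079 and 3224 in LIcrypt and 0, 0 and 7.91 in LI24h, and at most 11.5 in a small intestinal library. It fell in LI24h (log2FC -9.71, adjusted p = 1.7e-07, and interaction log2FC 9.86, adjusted p = 7.4e-04), where the goblet cell markers given above were lower as well. With most of its counts in LIcrypt, Best2 could hardly be called other than lower in LI24h and higher in the interaction. Clca4b, of the Clca family of calcium-activated chloride channel regulators, was at 66428 ± 6109 in SIcrypt and 51389.9 ± 1447 in SI24h, and fell from 27849 ± 6864 in LIcrypt to 1666 ± 138 in LI24h (log2FC -4.02, adjusted p = 9.1e-10; interaction log2FC 3.68, adjusted p = 1.0e-07). Its relative Clca4a rose in LI24h from 8894 ± 3634 to 17415 ± 836 (log2FC 1.02, adjusted p = 0.022) and fell in SI24h from 3868 ± 1411 to 1749.5 ± 155 (log2FC -1.11, adjusted p = 0.019).

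Of 9 other cation-chloride cotransporters and their WNK and SPAK kinases 8 were tested, Slc12a1 having too few counts. In SI24h 1 rose and 2 fell (median 0.38), and in LI24h 3 rose and 2 fell (median -0.08). Between crypts 1 was lower and none higher in the small intestine, between monolayers 1 was higher and 2 lower, and the interaction called 1 higher and 3 lower. Slc12a4 (KCC1), a potassium chloride cotransporter, rose from 79.1 ± 28.7 to 487 ± 15.1 normalized counts in the small (log2FC 2.66, adjusted p = 7.5e-09) and from 87.2 ± 14.8 to 1357 ± 61.9 in the large intestine (log2FC 4.01, adjusted p = 2.6e-11). Slc12a7 (KCC4) fell in both, from 12915 ± 1538 to 4411 ± 107 (log2FC -1.51, adjusted p = 3.7e-11) and from 7390.4 ± 210.4 to 2640.4 ± 134 (log2FC -1.44, adjusted p = 2.7e-11). Wnk1, a kinase upstream of SPAK, rose in LI24h from 4493 ± 146 to 12457 ± 218 (log2FC 1.52, adjusted p = 9.9e-14; interaction log2FC -1.04, adjusted p = 4.1e-09), beside 5404 ± 159 in SIcrypt and 7354 ± 35.8 in SI24h. Wnk4 was lower in the small intestine both in crypts, at 480.1 ± 58.3 against 1891 ± 62.3 (log2FC -1.94, adjusted p = 2.9e-11), and in monolayers, at 669.9 ± 12.4 against 1797 ± 87.6 (log2FC -1.39, adjusted p = 1.0e-09).

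All 10 receptors and second messenger genes of secretion were tested, and 2 rose and 3 fell in SI24h (median -0.40) while 2 rose and 5 fell in LI24h (median -0.94). SIcrypt was higher than LIcrypt in 4 and lower in 2, SI24h higher than LI24h in 6 and lower in 1 (median 1.27), and the interaction called 2 each way. Guca2b (uroguanylin), the peptide that raises cyclic GMP through guanylate cyclase C, was at 30335 ± 8151 in SIcrypt and 40000.5 ± 1030.4 in SI24h against 1535 ± 317 in LIcrypt and 1203 ± 149 in LI24h. It was higher in the small intestine in crypts (log2FC 4.35, adjusted p = 1.6e-07) and monolayers (log2FC 5.09, adjusted p = 7.4e-08) and not called on culture. Prkg2, the cyclic GMP-dependent kinase II that phosphorylates CFTR, was higher in SIcrypt, at 5547 ± 1169.6, than in LIcrypt at 581 ± 281 (log2FC 3.30, adjusted p = 2.2e-05), and rose in LI24h to 1754 ± 60.5 (log2FC 1.64, adjusted p = 0.0012; interaction log2FC -2.14, adjusted p = 0.0029). Adora2b, a receptor for adenosine that raises cyclic AMP, fell from 993 ± 323 to 68.6 ± 4.60 in the small (log2FC -3.81, adjusted p = 1.4e-09) and from 102 ± 9.41 to 26.7 ± 8.26 in the large intestine (log2FC -1.89, adjusted p = 1.5e-05). Abcc4, a pump that exports cyclic AMP, rose in both, from 329.98 ± 22.2 to 1522 ± 24.0 (log2FC 2.24, adjusted p = 1.6e-13) and from 1106 ± 35.4 to 5608 ± 173 (log2FC 2.39, adjusted p = 1.1e-14).

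Atp12a, the proton/potassium pump of the colonic surface, had normalized counts of 14760.2, 12942 and 16873 in LIcrypt and 23053, 23463 and 24179 in LI24h, and of 125, 94.9 and 39.1 in SIcrypt and 204, 188 and 151 in SI24h. All large intestinal libraries were far above all small intestinal ones, and in each region the monolayers lay above the crypts without overlap. The means differed 172 times between crypts (log2FC -7.42, SE 0.302, adjusted p = 3.6e-08) and 130.04 times between monolayers (log2FC -6.99, SE 0.284, adjusted p = 3.8e-08). Atp12a rose in SI24h (log2FC 1.13, SE 0.314, adjusted p = 0.012), a call that was lost without SIcrypt replicate 3, which held the most Paneth cell markers. That gave a log2 fold change of 0.77 and an adjusted p of 0.0053, where the alternatives ranged from 0.002 to 0.032. In LI24h its value was under the minimum fold change (log2FC 0.71, adjusted p = 0.014; interaction log2FC 0.42, adjusted p = 0.41). Other genes of the large intestine were found at a similar low level in the small intestinal libraries. Normalized counts were, for Hoxb13, 51.8, 48.0 and 39.1 in SIcrypt and 52.8, 71.2 and 10.9 in SI24h, and for Aqp8 179, 185 and 97.8 and 272, 237 and 96.7. Their part in the low Atp12a values was not tested. The antisense gene Gm10873 shares 557 bp of exon with Atp12a and had counts of 34, 17 and 37 in LIcrypt, 4, 6 and 5 in LI24h and 0 in the small intestine.

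The sodium pump sets up the gradient that these transporters use. Atp1b3, a beta subunit of the pump, rose in both regions, from 2735 ± 116 to 5552 ± 45.5 in the small (log2FC 1.06, adjusted p = 1.1e-09) and from 3064 ± 249 to 8485 ± 531 in the large intestine (log2FC 1.51, adjusted p = 6.6e-12). Fxyd3, a small subunit that modulates the pump, fell in LI24h from 1613 ± 75.7 to 559 ± 28.2 (log2FC -1.48, adjusted p = 1.9e-06; interaction log2FC 1.83, adjusted p = 2.3e-05), beside 604 ± 192 in SIcrypt and 752 ± 67.2 in SI24h. Of 2 genes of the gastric proton/potassium pump, Atp4b had too few counts for a test. Atp4a, with a mean under 1 CPM over the 12 libraries, was lower in LI24h than in LIcrypt (log2FC -2.40) and higher in SI24h than in LI24h (log2FC 3.33). Its interaction was called higher (log2FC 2.89).

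Potassium channels and their partners, which recycle potassium and keep the voltage for chloride exit, mostly fell in both regions. Of 6 listed, 4 fell and none rose in SI24h (median -1.24), and likewise 4 fell and none rose in LI24h (median -1.24), where 16.4% and 23.5% of all tested genes fell. SIcrypt was higher than LIcrypt in 1 and lower in 2, SI24h was higher than LI24h in 2 and lower in none, and the interaction called 2 higher and 1 lower. Kcne3, the subunit that keeps the basolateral KCNQ1 channel open, had normalized counts of 7395, 6782 and 8983 in SIcrypt, 3413, 3301 and 3279 in SI24h, 15384, 16003 and 19509.9 in LIcrypt and 246, 274 and 277 in LI24h. It fell in both (log2FC -1.18, SE 0.109, adjusted p = 9.6e-07 in the small and log2FC -5.95, SE 0.138, adjusted p = 7.2e-13 in the large intestine), by more in the large (interaction log2FC 4.77, adjusted p = 3.6e-10). Kcnq1 itself fell from 9641 ± 944 to 3572 ± 105 (log2FC -1.40, adjusted p = 1.7e-10) and from 5606 ± 301 to 1974 ± 175 (log2FC -1.46, adjusted p = 4.7e-11), with no call for the interaction (log2FC 0.06, adjusted p = 0.67). Kcnma1, the large-conductance potassium channel of the colon, fell in LI24h from 486 ± 97.5 to 144 ± 16.0 (log2FC -1.71, adjusted p = 9.0e-07; interaction log2FC 1.91, adjusted p = 4.4e-05). Kcnj16, an inward rectifier, fell in SI24h from 370.3 ± 34.9 to 39.1 ± 7.55 (log2FC -3.20, adjusted p = 1.2e-08, and interaction log2FC -2.28, adjusted p = 9.5e-04) and had at most 16.5 normalized counts in a large intestinal library. At such low counts there, its interaction rests mostly on the fall in the small intestine.

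**Figure D3:**
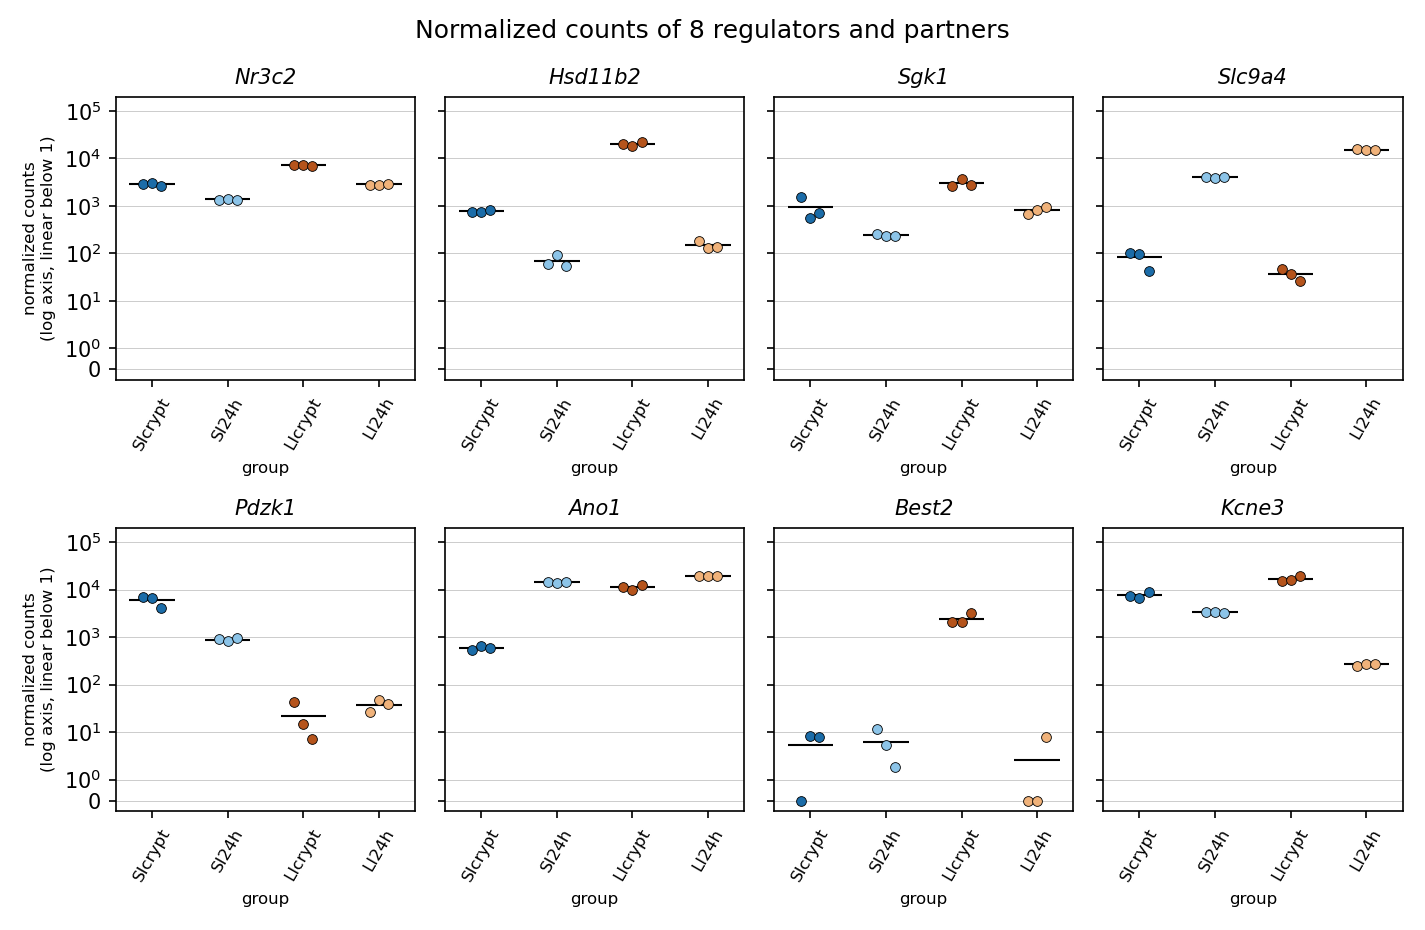
Normalized counts (log axis, linear below 1) of 8 regulators and partners of the transport genes in the 12 libraries, with points for replicates and black lines for group means. Hsd11b2 and Kcne3 are highest in LIcrypt, Slc9a4 is high in monolayers of both regions, and Ano1 is low in SIcrypt alone.

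Over all 70 listed genes around the 10 transporters, 66 were tested. Of these 8 rose and 18 fell in SI24h (median log2 fold change -0.28), and 12 rose and 27 fell in LI24h (median -0.50). In fresh crypts 11 were higher and 16 lower in SIcrypt than in LIcrypt (median -0.06), and 16 were higher and 11 lower in SI24h than in LI24h (median -0.09). The interaction called 18 higher and 14 lower. These counts are to be read beside the shares of all tested genes given above.

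Genes with the most similar pattern were sought among 13480 genes with a mean of at least 1 CPM, by Pearson's r of log2 CPM over the 12 libraries, which mostly reflects the 4 group means and carries no p. Slc9a3 was followed most closely by Dpep1 (r = 0.998), Ppp1r1b (r = 0.998), Irf8 (r = 0.997), Chchd10 (r = 0.996) and Ociad2 (r = 0.995). For Cftr these were 9130208D14Rik (r = 0.997), Engase (r = 0.996), Gdpd1 (r = 0.996), Scml4 (r = 0.996) and Ces1e (r = 0.995). Nearest to Slc26a3 were Nr3c2 (r = 0.992), Plcl2 (r = 0.991), Slc25a20 (r = 0.990), Dip2a (r = 0.989) and Cnnm4 (r = 0.988), the first being the mineralocorticoid receptor gene described above. Scnn1b was matched by 1810037I17Rik (r = 0.996), Fa2h (r = 0.993), ENSMUSG00000118516.1 (r = 0.989), Cog2 (r = 0.986) and Pqlc1 (r = 0.985). Such an r does not measure the size of a change. In SIcrypt, SI24h, LIcrypt and LI24h Cog2 stood at 49.6, 46.5, 82.7 and 61.5 CPM, and Scnn1b at 0.0117, 0, 6.46 and 0.282 CPM. Slc12a2, which differed little between groups, was matched by Crebrf (r = 0.968), Ikzf2 (r = 0.946), Stk10 (r = 0.945), Reep5 (r = 0.944) and Pde8a (r = 0.944).

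Scnn1b and Scnn1g, neighbours with counts in the same groups, and Slc9a3 and Slc26a3, which both fell in both regions, are shown with their promoters (250 bases before to 50 after the start of transcription, RefSeq, build GRCm38.p6), since entries were found for 6 of the 10 genes. They were searched on both strands for TGTTCT, a half-site of the mineralocorticoid and glucocorticoid receptors, for TGACGTCA, the cyclic AMP response element, and for GGGCGG, the GC box; matches, which did not overlap with those of another motif, are in capitals.
Scnn1b (chr7:121864788-121865087, plus strand): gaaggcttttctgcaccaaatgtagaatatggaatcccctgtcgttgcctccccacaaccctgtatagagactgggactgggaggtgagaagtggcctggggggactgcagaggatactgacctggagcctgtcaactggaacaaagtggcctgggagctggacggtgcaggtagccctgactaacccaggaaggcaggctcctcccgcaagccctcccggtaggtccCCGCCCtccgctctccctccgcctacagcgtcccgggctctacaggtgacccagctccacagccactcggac
Scnn1g (chr7:121734229-121734528, plus strand): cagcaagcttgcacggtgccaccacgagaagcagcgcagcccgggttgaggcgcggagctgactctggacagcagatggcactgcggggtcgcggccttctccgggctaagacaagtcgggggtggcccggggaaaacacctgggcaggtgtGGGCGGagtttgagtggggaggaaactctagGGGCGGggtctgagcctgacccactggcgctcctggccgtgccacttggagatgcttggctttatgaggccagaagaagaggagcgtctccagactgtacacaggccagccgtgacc
Slc9a3 (chr13:74121163-74121462, plus strand): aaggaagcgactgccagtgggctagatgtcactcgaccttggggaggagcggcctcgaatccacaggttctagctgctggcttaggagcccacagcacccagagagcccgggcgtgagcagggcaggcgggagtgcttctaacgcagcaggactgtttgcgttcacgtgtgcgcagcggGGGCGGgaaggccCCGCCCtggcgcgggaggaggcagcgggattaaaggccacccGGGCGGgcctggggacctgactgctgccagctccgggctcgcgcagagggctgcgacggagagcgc
Slc26a3 (chr12:31437969-31438268, plus strand): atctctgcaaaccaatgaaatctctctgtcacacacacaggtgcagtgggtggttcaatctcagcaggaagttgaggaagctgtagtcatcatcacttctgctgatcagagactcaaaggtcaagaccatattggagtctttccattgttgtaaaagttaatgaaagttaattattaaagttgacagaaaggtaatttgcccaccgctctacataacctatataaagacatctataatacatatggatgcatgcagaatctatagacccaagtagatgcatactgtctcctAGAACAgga
The half-site TGTTCT was found in 1 of the 6 promoters, that of Slc26a3, and in 19.0% of all 32851 promoters of the table. TGACGTCA was found in none of the 6 and in 1.79% of all, and GGGCGG in 5 of the 6 and in 35.7% of all. GC content was 39.3% in the window of Slc26a3, 61.7% in Scnn1b, 64.7% in Scnn1g and 68.7% in Slc9a3, beside a median of 52.7% over all promoters. A match describes the letters of the window and does not show binding.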

How the data were processed

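RNA of 12 mouse libraries was analysed, 3 in each of 4 groups taken from the labels. The authors aligned paired-end reads to GRCm38 with STAR 2.7.9a and counted them on GENCODE genes with featureCounts 2.0.2, and they deposited raw counts per gene. The authors also deposited a normalized signal, the same counts divided by DESeq2 size factors (0.850 to 1.12), from which normalized counts are printed. Gene names came from GENCODE release M21 (55141 of 55487 IDs, with 0 deposited columns unmapped), as did exon lengths; the authors used release M25. Counts were tested with edgeR 4.0.16 (TMM, filterByExpr, robust quasi-likelihood fit of 4 group means over all 12 libraries, Benjamini-Hochberg adjustment over 19581 genes; median biological coefficient of variation 0.126), after a test on simulated data, in R 4.3.3. The calls needed an adjusted p under 0.05 and a log2 fold change of 1 or more in size. RPKM used TMM library sizes and the union of exons. Low counts were compared by exact binomial intervals (scipy). Libraries of a group differed by at least 4.41 times the counting variance of independent counts, which does not show that they are independent replicates. The p-values measure the spread between these libraries, of 1 mouse each for crypts and of pooled wells for monolayers.

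The 10 genes, the 9 pathway lists (70 genes) and the 13 marker lists were chosen with earlier results of these data known. Named beside the 10 are, for each list, up to 4 tested genes called in a comparison with a mean of at least 1 CPM, by largest fold change, and Nr3c2, Hsd11b2, Sgk1 and Nedd4l in any case. Atp4a was named as the only tested gene of its list, and single markers and the 2 antisense genes were named after their values were seen. Alternatives were DESeq2 1.42.0, its size factors or upper quartile factors in edgeR, other filters, a block for the replicate number, counts divided by 2, a fit to the compared groups alone, calls without a minimum fold change, the longest transcript as length, and each library left out in turn.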

Additional observations from a re-analysis of the deposited data

Results flagged for a closer look

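For 3 of the 10 genes the fold change on culture differed between the regions by the interaction test of edgeR. For Slc9a3 the difference, small minus large intestine, was 3.60 on the log2 scale (adjusted p = 2.0e-06), where it fell in both regions and all LI24h libraries were below all SI24h libraries. For Cftr it was 1.92 (adjusted p = 2.3e-10), with a fall in the large intestine only among the calls. For Slc26a6 it was -2.55 (adjusted p = 8.6e-04), between -3.05 and -2.28 with single libraries left out, and its low values in the large intestine stood beside transcripts of small intestinal markers given in the report. With 3 libraries per group, no library was tested as an outlier.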

How the results depend on the processing

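Of 784 recomputed fold changes of the 10 genes, 758 kept their direction and their side of the threshold, 3 lost a call, 15 gained one (13 of them without a minimum fold change) and 8 turned sign. With at least 10 counts in every library, fewer genes can be called: 3140 in SI24h against SIcrypt, 4797 in LI24h against LIcrypt, 2606 between crypts and 2442 between monolayers (5110, 7442, 4446 and 4159 in the main test), and 3 of the 10 genes in LI24h against LIcrypt, since Scnn1b and Scnn1g drop out. Without a minimum fold change 11674, 13445, 10558 and 10145 genes were called, 9069 in the interaction (3909 in the main test), with 8 of the 10 genes in SI24h against SIcrypt and 7 in the interaction. The sign turned for Slc12a2 in LI24h against LIcrypt, at -0.048 with upper quartile factors and -0.0080 with at least 10 counts in every library (-0.034 to 0.12 with single libraries left out), and for the interaction of Scnn1g (-0.19 to 5.30 with single libraries left out); neither was called and the cause was not tested. Upper quartile factors moved the median of all genes by -0.12 in LI24h against LIcrypt, and relative to that median Slc12a2 stood at 0.12 under both scalings. Without SIcrypt replicate 3, 5060 genes were called in SI24h against SIcrypt, and without LIcrypt replicate 1, 7505 in LI24h against LIcrypt. Leaving out a library gave no value where both groups then held no count of Scnn1b or Scnn1g.

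The labels do not say if equally numbered libraries share mice, as the regions did in the culture methods. Their deviations correlated between -0.052 and 0.056, which shows no sign of pairing and does not exclude it. With the replicate block 5017, 7367, 4383, 4083 and 3807 genes were called in the 5 comparisons and 4, 5, 6, 8 and 3 of the 10 genes, no call of the 10 being changed. With the longest transcript as length, Slc26a6 made up 73.3%, 63.0%, 0.520% and 2.80% of Slc26a3 and Slc26a6 in SIcrypt, SI24h, LIcrypt and LI24h. Depth limits Scnn1b and Scnn1g in the small intestine, where 3 counts over a group correspond to 0.0158 CPM in SIcrypt and 0.0140 in SI24h.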
